A study of Mus musculus with 12 samples.

Results

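Platelet-derived growth factors (PDGFs) and their receptors were followed through lung cells sorted for Pdgfra after bleomycin (bleo) or vehicle, in WT and Pear1-/- mice. The genes were taken by symbol from the deposited tables and were the ligands Pdgfa, Pdgfb, Pdgfc and Pdgfd and the receptors Pdgfra and Pdgfrb, 6 of 40760 genes in all. PDGF ligands are secreted as dimers that bind and join receptor tyrosine kinases on the surface of mesenchymal cells, and the joined receptors drive division, migration and matrix production. PDGF-A and PDGF-C act mainly through the alpha receptor and PDGF-D mainly through the beta receptor, whereas PDGF-B binds both. In the lung, signalling through the alpha receptor is needed to form alveolar fibroblasts, the beta receptor is best known for recruiting pericytes to vessels, and PDGF-B is made by endothelial cells, platelets and macrophages.

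The sorted cells gave full-length cDNA by the SMART-Seq v4 kit, made for small RNA inputs, which was sequenced as 12 libraries in 4 groups of 3, of WT and Pear1-/- mice given vehicle or bleo. The mice were male and, by the study's methods, 8 to 12 weeks old on a C57BL/6 background, and all cells were sorted from lung as positive for CD140a, the protein of Pdgfra. Pear1-/- stood for a knockout-first allele present in every cell of the mouse, in which a gene-trap cassette lies between exon 6 and exon 7 of Pear1. Bleo, which injures the lung and is followed by fibrosis, was given as an aerosol into the trachea. The dose and day of these libraries, and the number of mice in each, were not given in the sources used here, so p-values measure the spread between these libraries, which may be technical. Since Pdgfra was the sorting antigen, its level is that of cells already selected for its protein.

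Libraries held from 6702948 to 10447101 counts, and 3 counts, taken as the floor of detection, came to 0.287 to 0.448 CPM (counts scaled to a common library total) by counting error alone. Within WT vehicle, replicate 2 stood apart. The chi-square of its counts per degree of freedom, near 1 for counting noise, was 21.2 and 21.8 against replicates 1 and 3, which gave 1.58 with each other, and it had 20643 genes over 3 counts where they had 25994 and 26625. Against the 3 Pear1-/- vehicle libraries, which had 19576 to 20792 such genes, replicate 2 gave only 1.73, 2.13 and 2.67. Replicates 1 and 3 gave 23.1 to 27.2 against them, and those 3 libraries gave 1.44, 4.31 and 4.82 with each other. Pairs of libraries within a bleo group gave 1.35 to 1.49. By its counts replicate 2, labelled WT vehicle, was thus nearer to the other genotype than to its own group. Every WT vehicle mean, the vehicle comparison and the interaction rest in part on it, and values without it are given below for the 6 genes where it changed a call or a size, and as counts between the vehicle groups for the 4 pathway lists. Pear1 itself had 519 to 576 normalized counts, which are defined below, in WT vehicle and 501 to 547 in Pear1-/- vehicle. The tables hold 1 count per gene, which does not part transcript upstream of the cassette from transcript downstream. Since Pear1 therefore does not check the labels, Pear1-/- below stands for the libraries labelled so. In bleo, Pear1 had 239 to 266 normalized counts in WT and 344 to 372 in the libraries labelled Pear1-/-. All 6 PDGF genes were above the floor in all 12 libraries and all 6 passed the filter on low counts, the lowest value being 14 counts for Pdgfb in WT vehicle replicate 1. Of the 16 fibroblast markers, which include Pdgfra, 16 were above the floor in some library of each group, but so was Ptprc (CD45), which defines leukocytes, whose normalized counts averaged 3303 ± 479 (SD, n = 3) in WT vehicle and 7616 ± 97.8 in WT bleo.

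On GRCm38 with the GENCODE M21 annotation, Pdgfa (ENSMUSG00000025856) lies on the minus strand at chr5:138976014-138997370, and Pdgfra (ENSMUSG00000029231) on the plus strand of the same chromosome at chr5:75152292-75198215. Pdgfb (ENSMUSG00000000489) lies at chr15:79995874-80014977 on the minus strand. Pdgfc (ENSMUSG00000028019) at chr3:81036416-81214040 and Pdgfd (ENSMUSG00000032006) at chr9:6168584-6378850 lie on the plus strand. Entries of RefSeq's promoter table for GRCm38.p6 were sought for the 6 genes except Pdgfrb, which was not looked up. They matched 4 genes, and Pdgfb had none. The 250 bases before the RefSeq start are shown for 3 of them, a ligand that rose after bleo, the ligand that fell and the receptor used for sorting, to set the letters beside the values. They run 5' to 3' on the plus strand, and capitals mark a TATA box.
Pdgfc, chr3:81036166-81036415: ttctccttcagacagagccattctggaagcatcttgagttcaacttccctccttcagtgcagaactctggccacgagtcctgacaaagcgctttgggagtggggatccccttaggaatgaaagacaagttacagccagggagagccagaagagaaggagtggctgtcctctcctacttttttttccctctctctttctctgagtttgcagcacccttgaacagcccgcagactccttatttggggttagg
Pdgfd, chr9:6168236-6168485: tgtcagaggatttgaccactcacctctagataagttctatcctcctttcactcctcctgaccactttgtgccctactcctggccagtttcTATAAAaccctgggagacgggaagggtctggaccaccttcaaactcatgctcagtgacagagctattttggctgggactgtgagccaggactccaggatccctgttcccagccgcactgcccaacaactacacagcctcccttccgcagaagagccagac
Pdgfra, chr5:75152001-75152250: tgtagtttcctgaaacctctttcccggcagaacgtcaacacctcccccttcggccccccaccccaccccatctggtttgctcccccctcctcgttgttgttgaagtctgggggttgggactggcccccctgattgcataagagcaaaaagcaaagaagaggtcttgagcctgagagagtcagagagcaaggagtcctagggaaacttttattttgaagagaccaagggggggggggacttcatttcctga

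Motifs were searched on both strands as the TATA box TATAAA, the GC box GGGCGG and the CCAAT box CCAAT, none of which overlaps another as spelled. The Pdgfd stretch held 1 TATA box, 160 bases before the RefSeq start, and the stretches of Pdgfc and Pdgfra held none of the 3 motifs. The RefSeq starts of Pdgfd, at 6168486, and of Pdgfra, at 75152251, lie before the GENCODE starts given above. The bases that follow those RefSeq starts were not found in a GENCODE transcript of the gene. Both Pdgfa stretches, one for each of its RefSeq starts, held GC boxes, 1 in the first and 2 in the second, and overlapped annotated exons by 86 and 139 bases. Of the 32851 promoters of the same length, 12.4% held the TATA box, 32.7% the GC box and 33.8% the CCAAT box. The GC content was 50.8% for Pdgfc, 53.6% for Pdgfd, 54.4% for Pdgfra and 66.4% and 72.4% for Pdgfa, with a median of 52.4% over all promoters.

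In vehicle the receptors were the most abundant of the 6 genes, and Pdgfd was the leading ligand. Levels are compared between genes as normalized counts per kilobase of annotated exon, where a normalized count is a count divided by the authors' size factor of its library. The order of the levels per kb in WT vehicle was Pdgfra at 455 ± 32.4 (SD, n = 3), Pdgfrb at 266 ± 24.3, Pdgfd at 96.2 ± 18.5, Pdgfa at 40.8 ± 2.03, Pdgfc at 9.17 ± 5.66 and Pdgfb at 6.13 ± 2.25. Neighbours in this order did not overlap between libraries except Pdgfc and Pdgfb. Libraries labelled Pear1-/- vehicle had the same order with no overlap, from Pdgfra at 416 ± 3.90 and Pdgfrb at 302 ± 24.2 per kb down to Pdgfc at 20.5 ± 1.58 and Pdgfb at 9.21 ± 1.42. After bleo Pdgfrb led per kb in both genotypes and Pdgfd was no longer the leading ligand. The order of the receptors after bleo turns on the annotated exon lengths used, 10024 bases for Pdgfra and 5478 for Pdgfrb, since by normalized counts Pdgfra was the higher, with means of 1360.1 against 1062 in WT bleo and 2392 against 2304 in Pear1-/- bleo. WT bleo had Pdgfrb at 194 ± 6.90 per kb, Pdgfra at 136 ± 2.98, then Pdgfb at 64.4 ± 2.82 and Pdgfa at 63.5 ± 3.26, whose libraries overlapped, then Pdgfc at 34.6 ± 1.57 and Pdgfd at 21.3 ± 2.92. For Pear1-/- bleo the levels per kb were 421 ± 11.7 for Pdgfrb, 239 ± 1.87 for Pdgfra, 58.1 ± 2.88 for Pdgfa, 36.4 ± 1.71 for Pdgfc, 21.6 ± 2.54 for Pdgfd and 16.4 ± 1.34 for Pdgfb, with no overlap between neighbours. The order of some ligands turns on the lengths too, since by normalized counts Pdgfa and Pdgfc overlapped in both Pear1-/- groups, with the mean of Pdgfc the higher, and Pdgfb and Pdgfd overlapped in Pear1-/- bleo.

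**Figure D1:**
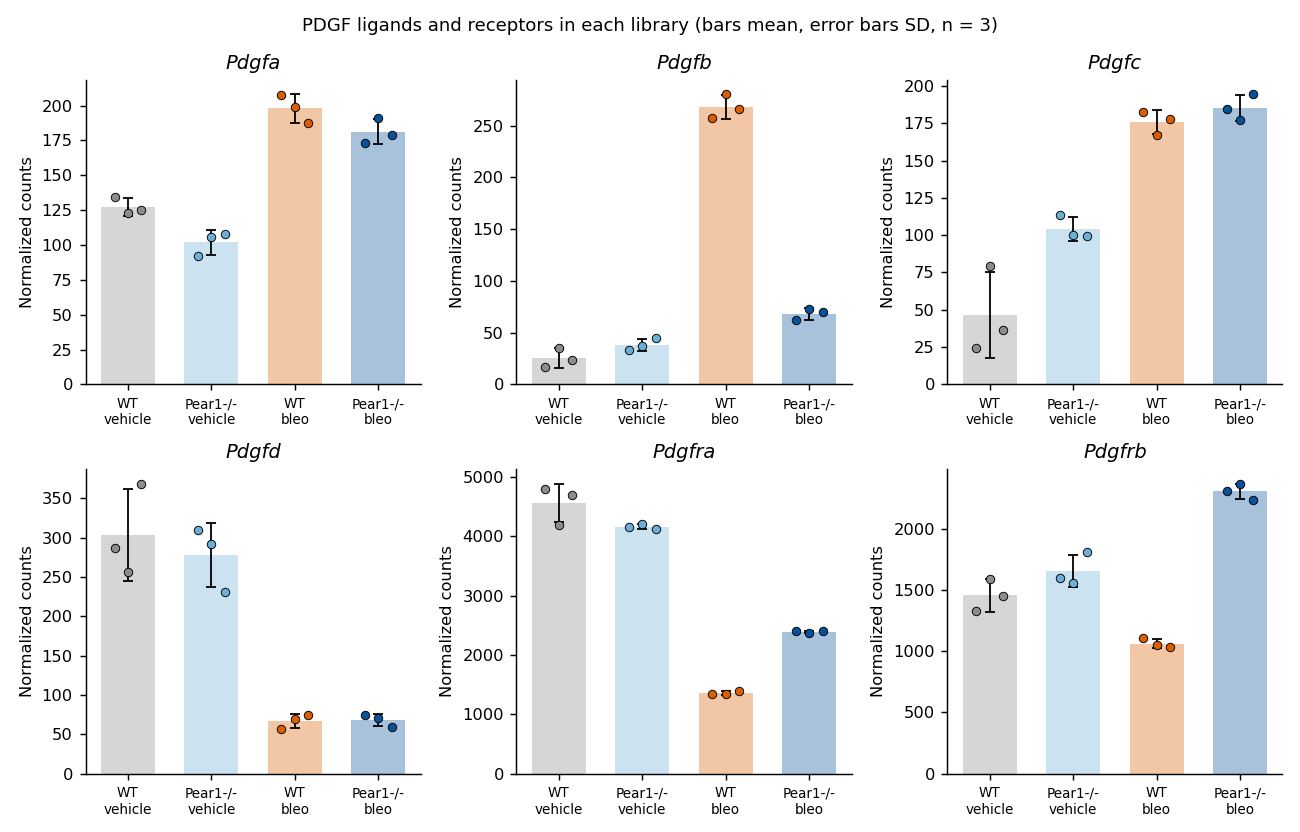
Normalized counts (y axis, linear from 0) of the 6 PDGF genes in the 12 libraries, with a point per library, bars for the group means and error bars for the SD (n = 3). Pdgfb stands at 257 to 280.4 in WT bleo and at most 73.1 in every other library, and Pdgfrb is highest in Pear1-/- bleo, at 2236 to 2364.

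The first comparison asked how bleo changed the genes in WT cells. Pdgfa, Pdgfb and Pdgfc rose, and Pdgfd, Pdgfra and Pdgfrb fell. By edgeR's quasi-likelihood test, 6 of 6 genes had an adjusted p under 0.05, where 67.9% of the 17418 genes tested did, 31.4% higher and 36.5% lower. A fold change above 2 as well, the study's criterion, was met by Pdgfb, Pdgfc, Pdgfd and Pdgfra, against 33.8% of all genes tested. In the libraries labelled Pear1-/-, bleo against vehicle moved the same 5 genes in the same directions, but Pdgfrb rose. There too 6 of 6 genes had an adjusted p under 0.05, where 62.2% of all genes tested did, 29.1% higher and 33.1% lower, and only Pdgfd of the 6 passed a fold change of 2, against 27.7%. Since most genes were called in either comparison, the count by itself says little of the PDGF genes, and their sizes and directions of change are given below.

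The direct comparison of the bleo groups gave 3 of the 6 genes with an adjusted p under 0.05. Pdgfb was lower and Pdgfra and Pdgfrb were higher in the libraries labelled Pear1-/-. Of all genes tested, 46.1% were called in this comparison, 22.1% higher and 24% lower, so the count itself is near the background. Pdgfb and Pdgfrb also passed a fold change of 2, as did 15% of all genes. The interaction of genotype and bleo, the log2 fold change in the libraries labelled Pear1-/- minus that in WT, was called for Pdgfb, Pdgfc, Pdgfra and Pdgfrb, 4 of 6 genes where 37.1% of all genes tested were called, 17.8% higher and 19.3% lower, and for Pdgfb and Pdgfc it exceeded a factor of 2, as for 15.5% of all genes. Between the vehicle groups 1 of the 6 genes, Pdgfc, was called, with 7.24% of all genes tested, 1.95% higher and 5.29% lower. Its fold change was above 2, as it was for 3.32% of all genes. The number of called PDGF genes and of all genes called changed much when 1 vehicle library was left out, as given at the end.

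**Figure D2:**
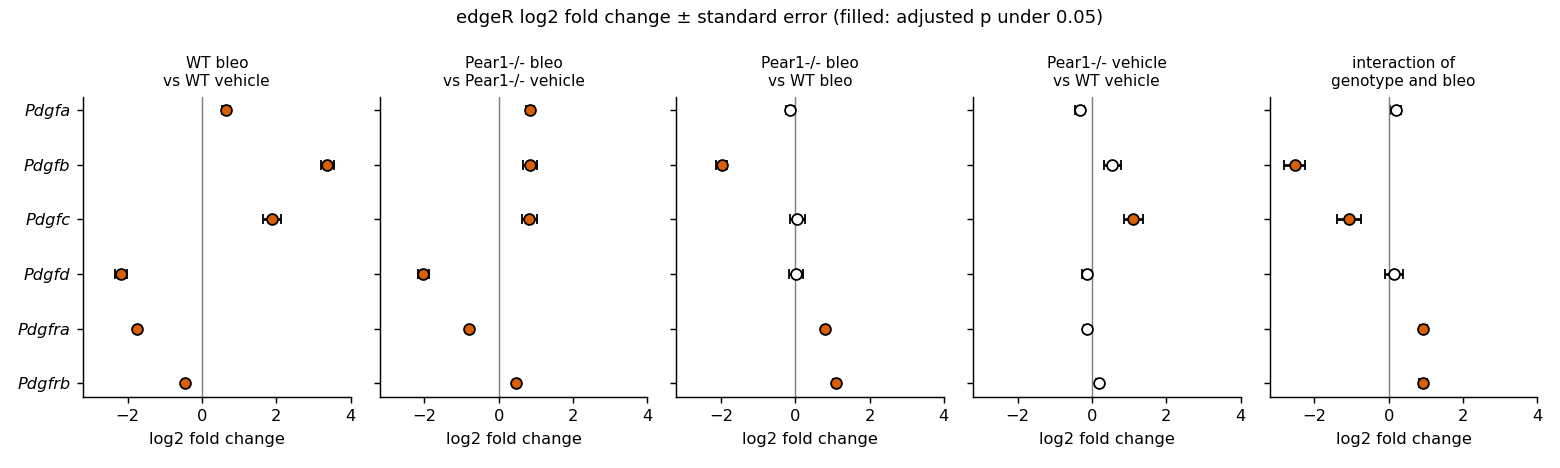
edgeR log2 fold changes (x axis) of the 6 PDGF genes with their standard errors, in a panel for each comparison, with filled points for an adjusted p under 0.05. Pdgfrb lies at -0.44 for bleo in WT and at 0.48 for bleo in Pear1-/-, and Pdgfb at 3.37 and 0.84.

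Pdgfa encodes the A chain, whose dimer binds the alpha receptor alone. It had 135, 123 and 125 normalized counts in the 3 WT vehicle libraries and 91.9, 106 and 108 in those labelled Pear1-/- vehicle. After bleo it had 208, 199 and 187 in WT and 173, 191 and 179 in Pear1-/-. All 6 bleo libraries were above all 6 vehicle libraries, and the genotypes overlapped in bleo. Pdgfa rose 1.57-fold with bleo in WT (log2 fold change 0.65, standard error (SE) 0.11, adjusted p = 3.39e-05), and 1.78-fold in the libraries labelled Pear1-/- (log2 fold change 0.84, SE 0.11, adjusted p = 2.56e-06). The difference between these effects, 0.19 on the log2 scale, did not pass the test (SE 0.15, adjusted p = 0.367), nor did the difference of -0.14 between the bleo groups (SE 0.10, adjusted p = 0.272). In vehicle the libraries labelled Pear1-/- were all below those of WT, with a log2 difference of -0.33 (SE 0.12) that did not pass the test either (adjusted p = 0.0755).

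Pdgfb encodes the B chain, a ligand of both receptors, and showed the largest change of the 6 genes. The WT vehicle libraries had 17.0, 35.5 and 24.0 normalized counts and those labelled Pear1-/- vehicle 33.1, 37.1 and 44.7, from 14 to 41 counts each before normalization. WT bleo had 257, 280.4 and 266, and Pear1-/- bleo 62.2, 73.1 and 69.6. The WT bleo libraries stood far above all others, and the Pear1-/- bleo libraries lay between them and the vehicle libraries without overlap. Pdgfb rose 10.4-fold in WT (log2 fold change 3.37, SE 0.18, adjusted p = 4.88e-12) and 1.79-fold in the libraries labelled Pear1-/- (0.84, SE 0.19, adjusted p = 0.000669). In bleo it was 3.95-fold lower in the libraries labelled Pear1-/- than in WT (log2 fold change -1.98, SE 0.15, adjusted p = 2.80e-09). The interaction was -2.53 on the log2 scale (SE 0.27, adjusted p = 7.45e-07). Without WT vehicle replicate 2 the log2 fold change of WT bleo over WT vehicle was 3.77, and with that replicate as the only WT vehicle library it was 2.93. The vehicle groups differed by 0.55 (SE 0.23, adjusted p = 0.111), which did not pass the test, and without WT vehicle replicate 2 the difference was 0.95 and did (adjusted p = 0.00223).

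The sum of leukocyte markers and the sum of platelet markers were highest in WT bleo, as Pdgfb was. By single markers, most leukocyte markers were higher and most platelet and endothelial markers lower in WT bleo than in WT vehicle. The summed CPM of 20 leukocyte markers was 3616 to 5855 in WT vehicle, 5732 to 6387 in Pear1-/- vehicle, 16546 to 16749.9 in WT bleo and 7978 to 8213 in Pear1-/- bleo. Of these 20 markers, 14 were higher and 5 lower in WT bleo than in WT vehicle, where 31.4% of all genes tested were higher and 36.5% lower. In Pear1-/- bleo 16 were lower and 0 higher than in WT bleo, where 24% of all genes tested were lower. Lyz2, a defining marker of macrophages, had 74718 ± 898 normalized counts (SD, n = 3) in WT bleo, the most counts that a gene added to the sum, and 34117 ± 699 in Pear1-/- bleo. The list did not move as one. The neutrophil gene S100a8 had 3813 ± 2748 normalized counts in WT vehicle and 435 ± 38.4 in WT bleo. The T cell gene Cd3e had 190 ± 43.6 and 113 ± 1.97. In the list, 0 leukocyte markers were at or under the floor in every library of a group. The 8 platelet and megakaryocyte markers summed to 77.8 to 80.8 CPM in WT bleo, 41.5 to 43.3 in Pear1-/- bleo and 38.0 to 41.7 in vehicle. Of 7 tested, 1 was higher and 6 were lower in WT bleo than in WT vehicle, beside 31.4% and 36.5% of all genes tested. The one that was higher was Pf4, which macrophages also express, with 614 ± 10.1 normalized counts against 97.0 ± 12.2, whereas Itga2b, the platelet integrin, had 40.9 ± 9.75 against 126 ± 7.26. Gp6, a collagen receptor of platelets, had 0 counts in the 3 Pear1-/- bleo libraries, which allows up to 3 counts in each. The 12 endothelial markers summed to 570.5 to 640.3 CPM in WT vehicle, 358 to 375 in WT bleo and 372 to 402 in Pear1-/- bleo. In WT bleo 0 were higher and 11 lower than in WT vehicle, beside 31.4% and 36.5% of all genes tested. In sorted bulk cells, more cells of a type and more RNA per cell cannot be told apart, and the part of these cell types in the Pdgfb values was not tested.

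**Figure D3:**
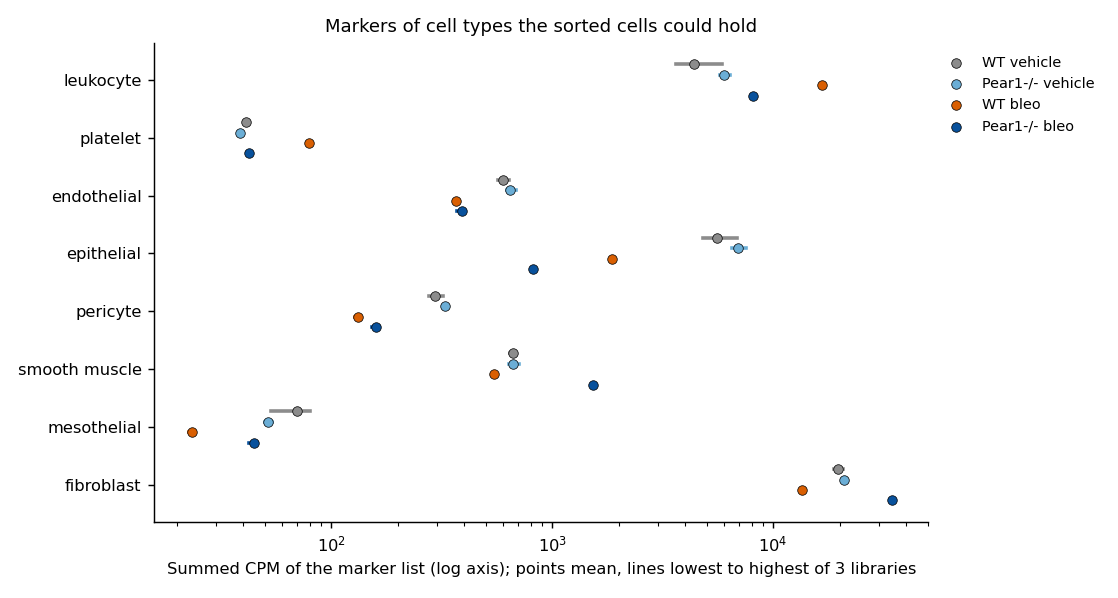
Summed CPM (x axis, log scale) of 8 lists of cell type markers in the 4 groups, with points for the means and lines from the lowest to the highest of 3 libraries. The leukocyte sum is highest in WT bleo, at 16546 to 16749.9, and the fibroblast sum in Pear1-/- bleo, at 33932 to 34924. Of the 16 fibroblast markers, 5 were higher and 10 lower in Pear1-/- bleo than in Pear1-/- vehicle, beside 29.1% and 33.1% of all genes tested.

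Pdgfc encodes a ligand that is secreted with a CUB domain over its growth factor domain and needs cleavage to act on the alpha receptor. It had 24.3, 79.1 and 36.6 normalized counts in WT vehicle, where replicate 2, the library that stood apart, was highest. The libraries labelled Pear1-/- vehicle had 114, 100.2 and 99.3, WT bleo 183, 167 and 178, and Pear1-/- bleo 185, 177 and 194. The vehicle groups did not overlap with each other or with bleo, and the bleo groups overlapped. Pdgfc rose with bleo 3.7-fold in WT (log2 fold change 1.89, SE 0.24, adjusted p = 3.78e-06) and 1.78-fold in the libraries labelled Pear1-/- (0.83, SE 0.21, adjusted p = 0.00253). Between the bleo groups the log2 difference was 0.06 (SE 0.20, adjusted p = 0.835).

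In vehicle Pdgfc was 2.17-fold higher in the libraries labelled Pear1-/- than in WT (log2 fold change 1.12, SE 0.25, adjusted p = 0.0316). This call was lost when WT vehicle replicate 1 or 3 or any 1 of the Pear1-/- vehicle libraries was left out, with adjusted p from 0.0866 to 0.174, and by limma (adjusted p = 0.0974). Without WT vehicle replicate 2 the log2 fold change was 1.83 (adjusted p = 2.44e-11), and without replicates 1 and 3 it was 0.40 (adjusted p = 1). For bleo against vehicle in WT the corresponding values were 2.60 and 1.17, both called, so the size of that rise also rested on which WT vehicle libraries were kept. The interaction of -1.06 (SE 0.32, adjusted p = 0.0167) became -1.79 and -0.32, the second with an adjusted p = 0.248, and it was lost by limma (adjusted p = 0.0608) and without Pear1-/- vehicle replicate 1 (adjusted p = 0.0565).

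Pdgfd encodes the second ligand with a CUB domain, which acts mainly on the beta receptor. Vehicle libraries had 286, 256 and 369 normalized counts in WT and 309.6, 292 and 231 in those labelled Pear1-/-. In bleo they had 56.9, 69.3 and 74.9 in WT and 74.6, 70.5 and 59.1 in Pear1-/-. Vehicle and bleo were far apart, and the genotypes overlapped in both. Pdgfd fell 4.49-fold in WT (log2 fold change -2.17, SE 0.16, adjusted p = 9.92e-10) and 4.06-fold in the libraries labelled Pear1-/- (-2.02, SE 0.16, adjusted p = 2.88e-09). The genotypes differed by 0.02 on the log2 scale in bleo (SE 0.19, adjusted p = 0.965) and by -0.13 in vehicle (SE 0.14, adjusted p = 0.533), and the interaction was 0.14 (SE 0.23, adjusted p = 0.662). Among the ligands Pdgfd fell with bleo and the other 3 rose, in either genotype.

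Pdgfra encodes the alpha receptor, the antigen by which the cells were gated. WT vehicle had 4802, 4195 and 4698 normalized counts and Pear1-/- vehicle 4166, 4203 and 4125. WT bleo had 1348, 1338 and 1394, and Pear1-/- bleo 2403, 2369.9 and 2402. The groups followed each other without overlap except in vehicle, where WT replicate 2 lay within the range of the libraries labelled Pear1-/-. Pdgfra fell with bleo 3.33-fold in WT (log2 fold change -1.74, SE 0.068, adjusted p = 4.53e-14) and 1.74-fold in the libraries labelled Pear1-/- (-0.80, SE 0.066, adjusted p = 5.16e-09). In bleo it was 1.74-fold higher in the libraries labelled Pear1-/- (0.80, SE 0.067, adjusted p = 1.04e-08), and the interaction was 0.94 (SE 0.093, adjusted p = 2.96e-07). The vehicle difference of -0.14 did not pass the test (SE 0.065, adjusted p = 0.157), but without WT vehicle replicate 2 a difference of -0.12 did (adjusted p = 0.0399).

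Pdgfrb (ENSMUSG00000024620), at chr18:61045150-61085061 on the plus strand, encodes the beta receptor and was the member whose change with bleo had opposite signs in the genotypes. It had 1327, 1593 and 1448 normalized counts in WT vehicle and 1601, 1559 and 1806 in Pear1-/- vehicle. It had 1104, 1051 and 1031 in WT bleo and 2311, 2364 and 2236 in Pear1-/- bleo. WT bleo was below and Pear1-/- bleo above every vehicle library, and the vehicle groups overlapped. Pdgfrb fell 1.36-fold with bleo in WT (log2 fold change -0.44, SE 0.078, adjusted p = 6.12e-05) and rose 1.40-fold in the libraries labelled Pear1-/- (0.48, SE 0.077, adjusted p = 2.74e-05). The interaction was 0.93 (SE 0.11, adjusted p = 2.71e-06). In bleo the gene was 2.15-fold higher in the libraries labelled Pear1-/- (1.10, SE 0.078, adjusted p = 1.15e-09). The vehicle difference was 0.18 (SE 0.078, adjusted p = 0.126), and without WT vehicle replicate 2 it was 0.32 and passed the test (adjusted p = 3.80e-05). The fall in WT was -0.31 without that library and still called (adjusted p = 3.40e-05).

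Markers of mesenchymal cells differed between the bleo groups beside the receptors. The summed CPM of 16 fibroblast markers, Pdgfra among them, was 13479 to 13584 in WT bleo and 33932 to 34924 in Pear1-/- bleo, with 18938 to 20786 in WT vehicle and 20598 to 21462 in Pear1-/- vehicle. Of these, 9 were higher and 2 lower in Pear1-/- bleo than in WT bleo, where 22.1% of all genes tested were higher and 24% lower. Most of the 16 were lower after bleo, however, with 3 higher and 13 lower in WT (median log2 fold change -1.40) and 5 higher and 10 lower in Pear1-/- (median -1.02). Of all genes tested, 31.4% were higher and 36.5% lower in WT (median -0.07), and 29.1% higher and 33.1% lower in Pear1-/- (median -0.05). In Pear1-/- bleo the genes that added most counts to the sum were the collagens Col1a1, Col3a1 and Col1a2, at 142173 ± 3129, 72242 ± 821 and 63672 ± 1119.7 normalized counts (SD, n = 3), whereas in Pear1-/- vehicle it was Dcn, at 41206 ± 1269, which had 7709.5 ± 19.4 in Pear1-/- bleo. The 8 smooth muscle markers summed to 541 to 548 CPM in WT bleo and 1514 to 1538 in Pear1-/- bleo, with 6 higher and 1 lower. The 9 pericyte markers, of interest for Pdgfrb, summed to 128 to 134 CPM in WT bleo, 153 to 165 in Pear1-/- bleo and 278 to 328 in vehicle, and 1 was higher and 2 lower in Pear1-/- bleo than in WT bleo. Cspg4, a defining pericyte marker that encodes NG2, had 159 ± 5.81 and 205 ± 21.8 normalized counts in WT bleo and Pear1-/- bleo, a log2 difference of 0.36 that did not pass the test (adjusted p = 0.0511). The 5 mesothelial markers summed to 22.8 to 24.1 and 42.4 to 45.9 CPM in these groups, and the 12 epithelial markers to 1860.4 to 1891 and 811 to 824. The part of any of these cell types in the receptor values was not tested.

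Per kb, the alpha receptor exceeded the beta receptor in every vehicle library and was below it in every bleo library. Where the ratio stands relative to 1 depends on the exon lengths used, but the ratio of 1 group to another does not. The ratio of Pdgfra to Pdgfrb was 1.98, 1.44 and 1.77 in WT vehicle, 1.42, 1.47 and 1.25 in Pear1-/- vehicle, 0.667, 0.695 and 0.739 in WT bleo and 0.568, 0.548 and 0.587 in Pear1-/- bleo. Bleo and vehicle did not overlap in either genotype, and the bleo groups did not overlap with each other. An exact permutation test of 3 libraries against 3 (two-sided) gave p = 0.1 for each of these comparisons, the smallest that this design allows, and p = 0.2 for the vehicle groups, and 28 such tests of ratios and shares were run, none of which could pass 0.05.

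The make-up of the ligands also changed with bleo. Pdgfd made up 62.8% ± 6.39 (SD, n = 3) of the summed ligand level per kb in WT vehicle and 58.3% ± 4.72 in Pear1-/- vehicle, but 11.6% ± 1.56 in WT bleo and 16.3% ± 1.93 in Pear1-/- bleo. Pdgfb made up 35.0% ± 1.17 in WT bleo, against 4.06% ± 1.63 in WT vehicle, 6.19% ± 1.42 in Pear1-/- vehicle and 12.4% ± 0.802 in Pear1-/- bleo. Pdgfb and Pdgfa, the latter at 34.5% ± 1.84, led the ligands in WT bleo, whereas Pdgfa at 43.8% ± 1.23 and Pdgfc at 27.5% ± 1.79 led in Pear1-/- bleo, all by the exon lengths used. The summed level itself varied less, from 143 to 169.9 per kb in WT vehicle and 138 to 158 in Pear1-/- vehicle to 182 to 186 in WT bleo and 130.4 to 136 in Pear1-/- bleo. The ratio of Pdgfb to Pdgfa was 0.152 ± 0.0615 in WT vehicle and 1.02 ± 0.0767 in WT bleo, and 0.281 ± 0.0255 in Pear1-/- vehicle and 0.282 ± 0.0117 in Pear1-/- bleo. The groups overlapped in Pear1-/- (exact permutation test, two-sided, p = 1) but not in WT, nor did the vehicle groups overlap with each other (p = 0.1 for both by the exact permutation test, the smallest possible).

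**Figure D4:**
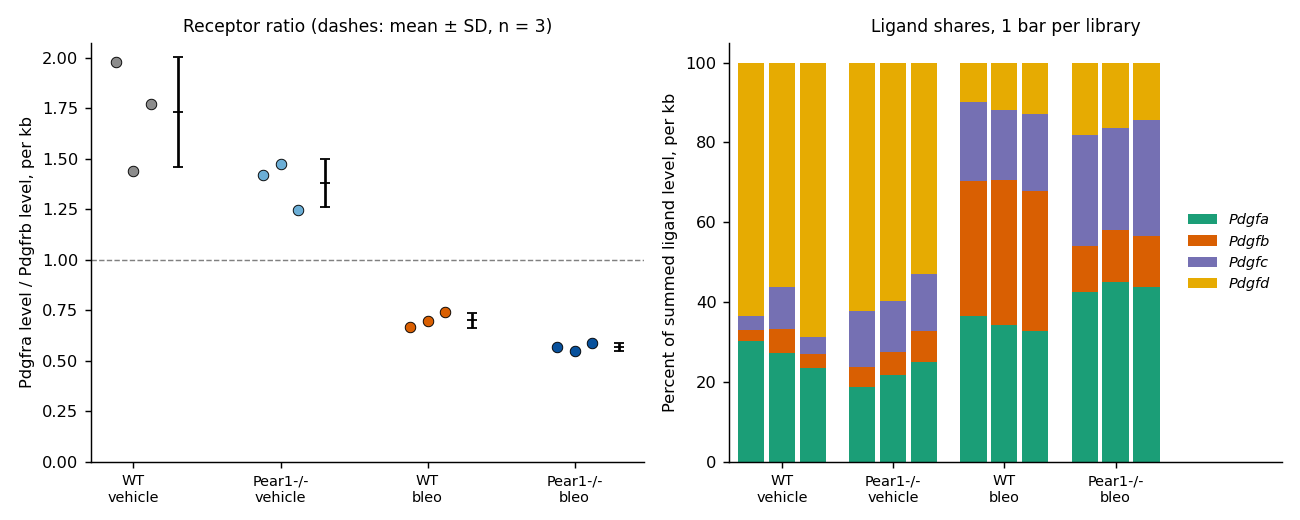
Left, the ratio of Pdgfra to Pdgfrb per kb in each library (points) with the mean and SD (n = 3) and a dashed line at equal levels; right, the share of each ligand gene in the summed ligand level per kb (percent, a bar per library). The ratio is above 1 in the 6 vehicle libraries and below 1 in the 6 bleo libraries, a position that depends on the exon lengths used, and Pdgfd gives way to Pdgfa, Pdgfb and Pdgfc after bleo.

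Genes that act with the PDGFs were described from 4 lists of 60 genes in all, every one of which passed the filter on low counts. For bleo against vehicle in WT, 27 were higher and 23 lower, 50 of 60 where 67.9% of all genes tested were called (31.4% higher and 36.5% lower), with a median log2 fold change of 0.04 where the median of all genes tested was -0.07. In the libraries labelled Pear1-/- 20 were higher and 19 lower, beside 29.1% and 33.1% of all genes, with medians of 0.04 and -0.05. In Pear1-/- bleo against WT bleo 18 were higher and 20 lower, beside 22.1% and 24% of all genes, with medians of 0.03 and -0.01. The interaction was called as higher for 13 and lower for 19, beside 17.8% and 19.3%, and between the vehicle groups 1 was higher and 2 were lower, beside 1.95% and 5.29%. The counts of the single lists below are to be read against the same shares. Single genes of the lists moved further than these medians.

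The first list held 9 genes that process, bind or resemble PDGFs or their receptors. With bleo 3 were higher and 4 lower in WT and 3 higher and 3 lower in the libraries labelled Pear1-/-, and 3 were higher and 3 lower in Pear1-/- bleo than in WT bleo. Furin, the proprotein convertase that matures the A and B chains, averaged 682 ± 104 and 510.4 ± 37.9 normalized counts (SD, n = 3) in WT and Pear1-/- vehicle, and 3068 ± 147 and 2272 ± 76.6 after bleo. It rose with bleo 4.53-fold in WT and 4.47-fold in Pear1-/-, log2 fold changes of 2.18 (SE 0.097, adjusted p = 3.13e-13) and 2.16 (SE 0.097, adjusted p = 6.27e-13), and its interaction was -0.02 (SE 0.13, adjusted p = 0.924). Proteases that cleave the CUB domain ligands differed from one another. Plau, the urokinase that can activate PDGF-D, averaged 100.4 ± 14.7 and 87.6 ± 5.38 normalized counts in the vehicle groups, 686 ± 29.9 in WT bleo and 274 ± 21.8 in Pear1-/- bleo, where it was lower than in WT bleo with a log2 difference of -1.33 (SE 0.093, adjusted p = 8.60e-10). Plat, the tissue plasminogen activator that cleaves PDGF-C, was higher there, at 1854 ± 7.04 against 1072 ± 25.5 normalized counts, with a log2 difference of 0.78 (SE 0.087, adjusted p = 5.21e-07). St14, the protease matriptase, was lower there, at 29.2 ± 5.37 against 72.9 ± 2.47, with a log2 difference of -1.32 (SE 0.19, adjusted p = 1.00e-05).

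Of the binding proteins in that list, Sparc, a matrix protein that binds the B chain, averaged 18706 ± 459 and 18085 ± 869 normalized counts (SD, n = 3) in WT and Pear1-/- vehicle, and 23609 ± 179.7 and 50929.8 ± 751 after bleo. It rose 1.27-fold with bleo in WT and 2.82-fold in Pear1-/- (adjusted p = 9.90e-06 and 1.80e-14), with an interaction of 1.15 (SE 0.074, adjusted p = 1.23e-09), the same sign as for Pdgfrb. Nrp1, a co-receptor, fell with bleo in both genotypes, with log2 fold changes of -0.26 (adjusted p = 0.000897) and -0.19 (adjusted p = 0.0122), calls made in 14 of 15 and 10 of 14 other settings. Lrp1, a scavenger receptor that the beta receptor phosphorylates, had -0.07 (adjusted p = 0.426) and -0.13 (adjusted p = 0.112) and did not pass the test. Pdgfrl, a receptor-like gene, fell with bleo in WT, with a log2 fold change of -0.72 (adjusted p = 3.85e-06), and in Pear1-/- the value was -0.18 (adjusted p = 0.109), with an interaction of 0.54 (adjusted p = 0.0048) that was called in 17 of 20 other settings. Between the vehicle groups Furin was the list's 1 called gene, lower in Pear1-/- with a log2 difference of -0.42 (adjusted p = 0.0301). That call was made in 7 of 15 other settings, not by limma. Of the 6 that left out 1 vehicle library it was made in 1, without WT vehicle replicate 2 (-0.47, adjusted p = 3.27e-07). In that setting 3 genes of the list were higher and 1 lower, and 11281 of all genes were called, against 1261 with all libraries.

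The second list held 26 genes that carry the signal of the receptors inside the cell. With bleo 10 were higher and 9 lower in WT and 6 higher and 7 lower in Pear1-/-, and between the bleo groups 8 were higher and 9 lower in Pear1-/-. Grb2, the adaptor that links receptors to Ras, averaged 235 ± 26.7 and 247 ± 8.99 normalized counts (SD, n = 3) in WT and Pear1-/- vehicle, and 1146 ± 18.6 and 383 ± 11.5 after bleo. Its interaction was -1.66 (SE 0.12, adjusted p = 3.73e-09), the same sign as for Pdgfb. Fyn and Yes1, kinases of the Src family, had interactions of opposite sign, -1.04 (SE 0.13, adjusted p = 7.15e-06) and 1.05 (SE 0.22, adjusted p = 0.00108). Akt1, a kinase downstream of PI3K, rose by log2 fold changes of 1.27 and 1.45 in WT and Pear1-/- (adjusted p = 5.80e-09 and 1.29e-09). Stat5b, a transcription factor, fell in both, with -0.89 and -1.30 (adjusted p = 1.87e-08 and 1.14e-10). In vehicle edgeR called 0 of the 26 genes between the genotypes, where 5473 of all genes tested had an unadjusted p under 0.05, and limma called 0 of the 60 list genes. Without WT vehicle replicate 2, 10 of the 26 were higher and 1 was lower in the libraries labelled Pear1-/-. In that setting 11281 of all genes were called, against 1261 with all libraries.

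The third list held 14 genes that dampen receptor signalling. For bleo against vehicle in WT 9 were higher and 4 lower, with a median log2 fold change of 0.31 where that of all genes was -0.07. In Pear1-/- 6 were higher and 4 lower, with a median of 0.01 beside -0.05. Between the vehicle groups edgeR called 0 of the 14. Without WT vehicle replicate 2 it called 7 as higher and 2 as lower, where it called 11281 of all genes. Spry1, an inhibitor of Ras signalling, fell in both, with log2 fold changes of -1.89 in WT (adjusted p = 6.23e-14) and -1.78 in Pear1-/- (adjusted p = 1.65e-13). Ptpn1, a phosphatase that acts on the receptors, rose in both, by 1.51 and 1.01 (adjusted p = 4.34e-11 and 1.96e-08). Cbl, the ubiquitin ligase that marks the receptors for degradation, and Ptprj, a receptor phosphatase, had interactions of -0.73 (SE 0.11, adjusted p = 5.07e-05) and -1.46 (SE 0.24, adjusted p = 0.000223).

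The fourth list held 11 VEGF ligands and receptor kinases related to the PDGF genes in sequence. Bleo against vehicle in WT gave 5 higher and 6 lower, and Pear1-/- bleo against WT bleo 2 higher and 3 lower. Of the calls in WT, Vegfb, Flt4, Flt3 and Vegfc were called in 2, 3, 4 and 5 of the 6 settings that left out 1 WT library. Csf1r, the receptor of macrophage colony-stimulating factor and also one of the leukocyte markers above, averaged 1237 ± 24.6 and 1187 ± 70.8 normalized counts (SD, n = 3) in WT and Pear1-/- vehicle, and 10385 ± 159 and 3964 ± 26.6 after bleo, with an interaction of -1.34 (SE 0.089, adjusted p = 1.88e-09). Kdr, the main VEGF receptor of endothelial cells, fell, with log2 fold changes of -1.54 in WT and -1.78 in Pear1-/- (adjusted p = 5.01e-10 and 6.57e-11). Vegfd, a ligand with a growth factor domain of the same family, fell with bleo in WT, with a log2 fold change of -0.72 (adjusted p = 1.16e-07) and was higher in Pear1-/- bleo than in WT bleo by 0.82 (adjusted p = 4.28e-08). Vegfa, which drives vessel growth, differed there by -0.68 (adjusted p = 0.000477). Between the vehicle groups Flt1, a VEGF receptor, was lower in Pear1-/- with a log2 difference of -0.55 (adjusted p = 0.0292) and Flt3, a receptor kinase of blood cell precursors, was higher, at 0.43 (adjusted p = 0.0394). Both calls were lost by limma and in 5 of the 6 settings that left out 1 vehicle library. Without WT vehicle replicate 2 they stood at -0.60 and 0.59 (adjusted p = 2.01e-06 and 0.000165). In that setting 3 genes of the list were higher and 1 lower, where 11281 of all genes were called.

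**Figure D5:**
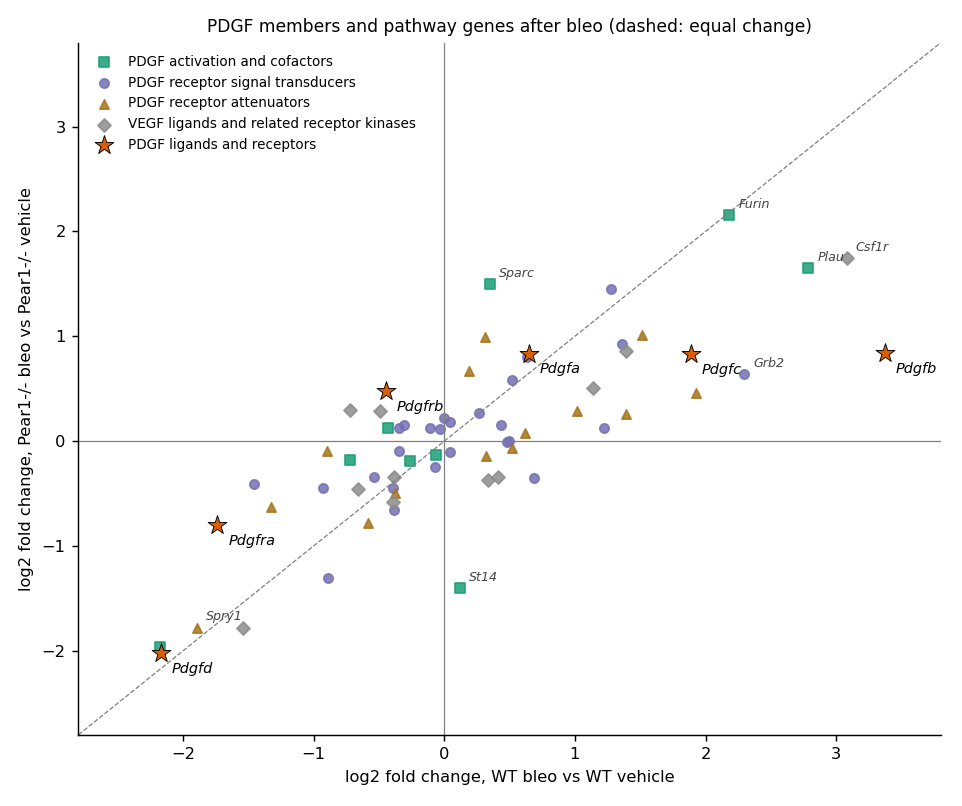
edgeR log2 fold changes for bleo against vehicle in WT (x axis) and in the libraries labelled Pear1-/- (y axis) of the 6 PDGF genes (stars) and the 60 genes of the 4 lists, with a dashed line where both changes are equal. Pdgfb, at 3.37 and 0.84, lies below the line with Grb2, Plau and Csf1r, Pdgfrb and Sparc lie above it, and Pdgfd lies near it at -2.17 and -2.02.

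The genes whose pattern over the 12 libraries was most like that of each member are given as a description, by Pearson's r of log2 CPM among the 10703 genes whose mean log2 CPM reached 3. The libraries fall into 4 groups, so high values of r are common, and no test was run. Nearest to Pdgfb were Slc15a3 (r = 0.998), Psme1 (0.997) and Myo9b (0.996). Nearest to Pdgfa were Col8a1 (r = 0.987), Srek1ip1 (0.985) and Wwp2 (0.984), and nearest to Pdgfc were Gnptab (r = 0.985), Rpl14 (0.984) and Kif23 (0.979). Pdgfd was closest to Tppp (r = 0.993), Abca6 (0.991) and Colq (0.99). Pdgfra was closest to Fmo2 (r = 0.998), the immunoglobulin gene Igkv12-41 (0.997) and Rbpms (0.996), and Pdgfrb to Cdk16 (r = 0.989) and Rasl11b (0.986). Immunoglobulin genes such as Igkv12-41, and ribosomal protein genes such as Rpl14, have near copies with which reads can be shared, so their values are uncertain.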

How the data were processed

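The authors aligned paired reads to GRCm38 (mm10) with HISAT2. The counting program was not given in the sources used here. The deposited counts give reads per gene, not normalized, for 40760 genes in 12 libraries and entered all tests. The authors' other table is a linear signal, found to equal the counts over 1 DESeq2 size factor per library (0.825 to 1.16).

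Counts were tested with edgeR 4.0.16 in R 4.3.3 (quasi-likelihood test, TMM, robust estimate of the spread, filterByExpr, 1 mean per group over 12 libraries, two-sided, Benjamini-Hochberg adjustment over 17418 genes). A gene was called at an adjusted p under 0.05, and the study's fold change above 2 was given beside it. Alternatives were DESeq2 1.42.0, limma 3.58.1 on log2(normalized count + 1), other scaling and filters, a replicate block and leaving out libraries. The step was tested on simulated data. Levels per kb used the union of GENCODE M21 exons. CPM of the marker sums and log2 CPM were scaled to each library's total over the genes tested times its TMM factor. The floor in CPM was scaled to the library total of all counts. Named genes were the 6 members, the 4 genes of smallest adjusted p of each list and comparison, fixed processing genes, the 3 genes most like each member and defining markers, and some genes that this rule names are not reported here. Members and lists were chosen with earlier results of these data known.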

Additional observations from a re-analysis of the deposited data

Results flagged for a closer look

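For 4 of the 6 genes the change with bleo was not the same in the 2 labelled genotypes by the interaction test of edgeR, which called 37.1% of all genes tested. The interaction, the log2 fold change in the libraries labelled Pear1-/- minus that in WT, was -2.53 for Pdgfb (adjusted p = 7.45e-07), -1.06 for Pdgfc (adjusted p = 0.0167), 0.94 for Pdgfra (adjusted p = 2.96e-07) and 0.93 for Pdgfrb (adjusted p = 2.71e-06). Over all other settings tried it ranged from -2.94 to -2.06 for Pdgfb, from -1.79 to -0.32 for Pdgfc, from 0.83 to 0.95 for Pdgfra and from 0.77 to 1.07 for Pdgfrb. The value for Pdgfc rested on the WT vehicle libraries, which had 24.3, 79.1 and 36.6 normalized counts, and its adjusted p reached 0.248 without replicates 1 and 3.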

How the results depend on the processing

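Over the alternatives, the log2 fold changes of the 6 genes kept their direction and side of the threshold in 90 of 90 settings for bleo against vehicle in WT, 84 of 84 in the libraries labelled Pear1-/-, 81 of 84 between the bleo groups, 74 between the vehicle groups and 113 for the interaction. The call of Pdgfc was lost in 8 settings between the vehicle groups and 3 of the interaction, and 5 settings between the vehicle groups gained a call. Pdgfd, which was called in none of these 3 comparisons, changed sign in the rest. Its log2 difference between the bleo groups was 0.02 and ranged from -0.10 to 0.10 when 1 library was left out. Between the vehicle groups it was -0.13, from -0.17 to 0.040 when 1 library was left out and 0.12 without WT vehicle replicates 1 and 3. Its interaction was 0.14, from -0.025 to 0.18 when 1 library was left out and -0.090 without WT vehicle replicates 1 and 3. Between the vehicle groups the count of called PDGF genes was 1, but 3 with no filter on low counts and 0 by limma, with the fit on the groups compared and without WT vehicle replicates 1 and 3 (an alternative chosen after seeing the data). It ranged from 0 to 4 when 1 library was left out, with 4 without WT vehicle replicate 2. The list genes called there numbered 3 of 60, but 16 with no filter and 0 by limma, with the groups compared and without WT vehicle replicates 1 and 3, and 0 to 28 when 1 library was left out. Of all genes 1261 were called there, 5676 with no filter, 33 by limma, 784 with no robust estimate of the spread, 0 with the groups compared and without WT vehicle replicates 1 and 3, and 0 to 11281 when 1 library was left out. For bleo against vehicle in WT, 11834 of all genes were called and 19714 with no filter. Beside the counts of 0, 5473 genes had an unadjusted p under 0.05 between the vehicle groups. Same-numbered libraries of different groups deviated together in 1 of 18 pairs (r from -0.278 to 0.165, threshold 0.1), so the numbers were not taken as pairs. With the replicate block, 6, 6, 3, 1 and 4 PDGF genes were called in the 5 comparisons, as without it. The list genes called with the replicate block were 49, 39, 37, 3 and 33, and of all genes 11680, 10708, 7815, 1256 and 6235. The cause of these changes was not tested. Depth limited Pdgfb most in vehicle, where it had 14 to 41 counts a library.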
